A study of Mus musculus with 12 samples.

Results

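Tumour necrosis factor alpha (TNF) was tested on KSL cells from mice labelled Fancc-/-, and the comparison used 6 of the 12 arrays of the series. KSL cells are the c-Kit+, Sca-1+, lineage-negative fraction of bone marrow, enriched for haematopoietic stem and early progenitor cells. The arrays were chosen by their titles: 3 were labelled mutant with TNF and 3 mutant without TNF, both from mice 2 to 4 months old. All cultures ran for 24 h in medium with 10% fetal bovine serum and 4 cytokines. Stem cell factor and IL-11 were at 10 ng/ml, IL-6 at 20 ng/ml and Flt3 ligand at 50 ng/ml, and the treated cultures also held TNF at 10 ng/ml. The other 6 arrays held wild-type KSL cells under the same 2 conditions, and they served for the estimate of spread and for 1 comparison at the end. The strain, the Fancc allele and whether mice were pooled are not given in the sources used here. Replicates are therefore samples of unknown independence, and the p-values reflect only how these samples scatter, part of which may be technical.

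TNF is an inflammatory cytokine that binds 2 receptors, encoded by Tnfrsf1a and Tnfrsf1b. Receptor adaptors activate kinases that release NF-kB transcription factors from their IkB inhibitors, and NF-kB then induces its own inhibitors and other brakes on the pathway. In bone marrow, TNF acts on stem and progenitor cells, and cells that lack Fanconi anaemia proteins are known for their sensitivity to it. The Fancc protein belongs to the core complex that marks DNA crosslinks for repair.

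Each of 18193 genes was read by 1 probe set, in log2 units, so a difference of 1 is a 2-fold change. The brightest Fancc probe set read 9.16, 8.73 and 9.15 without TNF and 8.87, 9.12 and 8.95 with it on the arrays labelled mutant, a change of -0.03 (SE 0.14, limma adjusted p = 0.956). These values lay above the wild-type ones, which ran from 8.22 to 8.65, so this probe set goes against the genotype label. Its position relative to the disruption is unknown here, and the arrays are called mutant as labelled. Kit, the measured positive marker of the sorting gate, read 9.95 to 10.38 on the 6 arrays, and the Sca-1 gene Ly6a was not among the genes read by a single-symbol probe set. Of other blood progenitor and leukocyte genes, Cd34 read 12.81 to 13.01 and Ptprc (CD45) 11.41 to 11.84. The lineage genes Cd3e (3.18 to 3.46), Cd4 (4.80 to 5.25), Cd8a (5.01 to 5.76), Cd79a (5.08 to 5.51) and Itgam (5.12 to 6.08) lay below the median of all gene values, 7.44. Cd5, on the list of gate and lineage genes, was called higher with TNF, by 2.28. Markers of granulocyte and monocyte progenitors were also bright without TNF (Mpo 13.60, 13.66 and 13.61, Csf1r 12.34, 12.73 and 12.99), so the cultured cells were not free of myeloid transcripts. Of 24 stromal and endothelial markers, Lepr (4.20 to 4.78) and Cdh5 (4.18 to 4.53) stayed near the lower quartile of 4.54. The median untreated level of the 24 was higher, at 5.09, and Fn1, also made by blood cells, read 6.54 to 8.37 without TNF.

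Sex-linked transcripts differed between the arrays. Xist, the X-inactivation transcript of females, read 5.12, 12.73 and 12.04 without TNF and 12.53, 12.61 and 12.20 with it, while the Y-linked Eif2s3y read 11.88, 4.16 and 11.32 without TNF and 10.87, 10.93 and 11.50 with it. Untreated replicate 1 thus had the Y-linked signal alone, untreated replicate 2 the Xist signal alone, and the other 4 arrays both. With both levels as covariates the count of called genes fell from 784 to 452. Treated replicate 2 stood apart: 297 genes lay at least 2-fold from the mean of the other 2 arrays of its group, against 82 to 183 for the other 5 arrays. Where leaving out 1 array ended the call of a gene named here, the arrays and the adjusted p are given beside it, and for calls that only other settings ended, the p under those. Other settings that also ended such calls are not all listed. Of 81 named genes that lost their call under some alternative, 8 lost it only when an array was left out.

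TNF changed 784 of 18193 genes (4.31%) at a limma adjusted p under 0.05. Of these, 446 were higher (2.45% of genes tested) and 338 lower (1.86%). The called increases were the larger ones: their median change was 1.04 against -0.78 for the decreases, and 80 rose but 23 fell by at least 4-fold. Genes called lower had been the brighter ones without TNF, with a median level of 9.34, against 7.81 for those called higher and 7.37 over all genes. Over all genes 26.2% had treated and untreated arrays that did not overlap, and none of the 784 called genes overlapped. Without adjustment, 3106 genes had a p under 0.05. Leaving out untreated replicate 2 or 3 or treated replicate 2 or 3 left 444, 457, 506 and 512 called genes. For lists with 1 or 2 calls the count is given as a description of those genes alone. Every list count is to be read beside the shares over all genes, 2.45% higher and 1.86% lower. In bulk samples such as these, fewer cells of a type and less RNA per cell cannot be told apart.

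**Figure D1:**
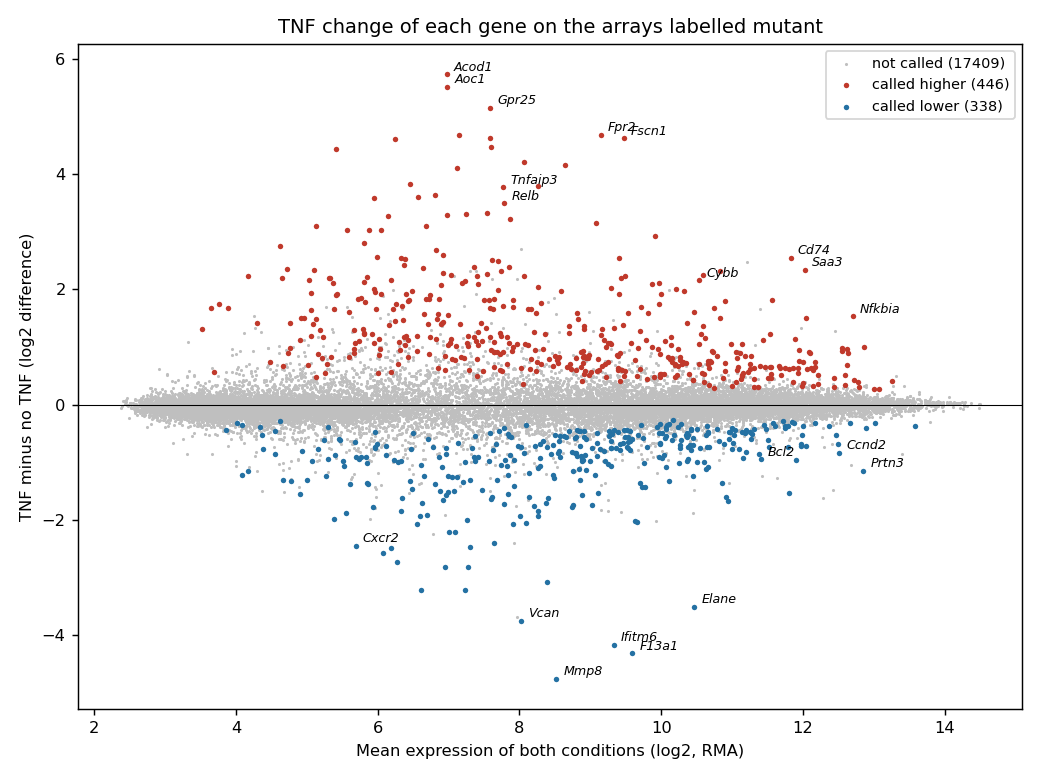
Each point is 1 gene, with its mean level over the treated and untreated arrays labelled mutant on the x axis (log2) and the TNF minus no TNF difference on the y axis (log2). The 446 genes called higher (red) reach 5.73 (Acod1), the 338 called lower (blue) reach -4.75 (Mmp8), and uncalled genes are grey.

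Within the NF-kB family, Relb, Nfkb2, Bcl3, Nfkbia, Nfkbie and Ikbke rose, and Rela and Rel did not pass. Of the 14 subunits, inhibitors and kinases used here, 6 were higher (against 2.45% of all genes) and 0 lower, with a median change of 0.47 against -0.03 over all genes. Relb, a subunit that pairs with p52, read 5.81, 6.23 and 6.08 without TNF and 9.58, 9.52 and 9.49 with it. Its treated arrays lay close together and far above the untreated ones, a rise of 3.49 (SE 0.12, limma adjusted p = 3.05e-07), which was the smallest p of all genes. Nfkb2, which encodes the p52 precursor, read 8.79, 9.10 and 8.86 without TNF and 11.03, 11.04 and 11.01 with it and rose by 2.11 (SE 0.12, limma adjusted p = 6.43e-06). Bcl3, an atypical IkB protein that binds p50 and p52 in the nucleus, rose by 0.65 (SE 0.12, limma adjusted p = 0.0108), though its adjusted p was 0.0689 with the sex-linked covariates. Rela, the main transactivating subunit, read 9.95, 10.03 and 9.94 without TNF and 10.15, 10.30 and 10.33 with it, a difference of 0.29 (SE 0.09, limma adjusted p = 0.115) that did not pass. Rel differed by 0.10 (SE 0.17, limma adjusted p = 0.841) with overlapping arrays, and so did Map3k14, the kinase of the noncanonical branch, by 0.19 (SE 0.18, limma adjusted p = 0.668).

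Both Nfkbia and Nfkbie, which hold NF-kB in the cytoplasm, rose. Nfkbia (IkB alpha) read 11.99, 11.89 and 11.94 without TNF and 13.45, 13.49 and 13.48 with it, a rise of 1.53 (SE 0.09, limma adjusted p = 7.04e-06). Nfkbie (IkB epsilon) read 8.10, 8.65 and 7.65 without TNF and 10.62, 10.77 and 10.64 with it, a rise of 2.54 (SE 0.20, limma adjusted p = 8.30e-05), and its untreated arrays were spread more widely than its treated ones. Nfkbib, Ikbkb and Ikbkg were not called, with changes of 0.10, 0.17 and -0.03. Nfkbiz, a nuclear IkB, differed by 0.75 (SE 0.22, limma adjusted p = 0.0953). The kinase gene Ikbke was higher by 1.04 (SE 0.24, limma adjusted p = 0.0365). The call of Ikbke was lost without untreated replicates 1, 2 or 3, treated replicates 1 or 3 or wild-type untreated replicates 2 or 3 (limma adjusted p = 0.054 to 0.124).

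Downstream of the receptors, 5 of 25 adaptor and feedback genes were higher and 0 lower. Tnfaip3 (A20), a ubiquitin-editing enzyme that shuts the pathway down, read 6.19, 5.77 and 5.70 without TNF and 9.67, 9.63 and 9.68 with it. The treated arrays were almost equal and lay far above the untreated ones, a rise of 3.77 (SE 0.16, limma adjusted p = 8.31e-07). Its partner Tnip1, a ubiquitin-binding protein, rose by 1.36 (SE 0.14, limma adjusted p = 0.000382). Traf1, an adaptor bound by the second receptor, read 4.94, 5.53 and 4.94 without TNF and 7.78, 8.26 and 8.65 with it and rose by 3.09 (SE 0.31, limma adjusted p = 0.000303). Birc3 (cIAP2), a ubiquitin ligase of the receptor complex, read 10.14, 10.03 and 10.07 without TNF and 11.47, 11.72 and 11.58 with it and rose by 1.51 (SE 0.08, limma adjusted p = 4.36e-06). Tank, a TRAF-binding protein, rose by 0.69 (SE 0.10, limma adjusted p = 0.00265). The receptors themselves did not pass: Tnfrsf1a read 10.81, 10.84 and 10.92 without TNF and 10.54, 9.96 and 10.57 with it, a difference of -0.50 (SE 0.18, limma adjusted p = 0.179). Its arrays did not overlap, with treated replicate 2 the lowest. Tnfrsf1b read 9.80, 9.82 and 10.05 without TNF and 9.95, 9.72 and 10.67 with it, with overlap, a difference of 0.22 (SE 0.22, limma adjusted p = 0.692). The relatives Birc2, Cyld and Tnip2 were higher on all treated arrays but not called: Birc2 (0.57, adjusted p = 0.0671), Cyld (0.27, adjusted p = 0.0838) and Tnip2 (0.35, adjusted p = 0.0567). For Tnfaip3 and Traf1 the mean of all probe sets gave changes of 2.13 and 1.90.

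**Figure D2:**
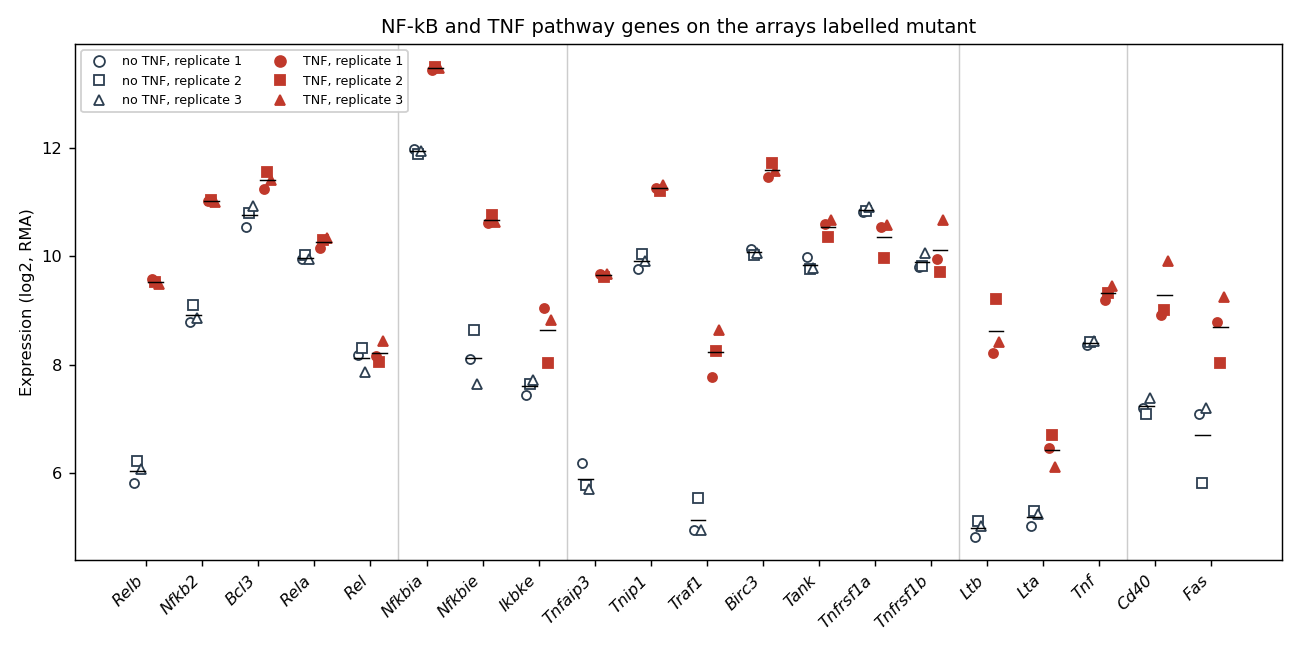
Points are single arrays labelled mutant, with expression on the y axis (log2), open symbols without TNF, red symbols with TNF, 1 marker shape per replicate number and a line at each group mean. Relb, Nfkb2, Nfkbia, Tnfaip3 and Birc3 have tight treated arrays far from the untreated ones, while Rel and Tnfrsf1b overlap and Fas has a wide untreated group.

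Promoter sequence from RefSeq was set beside these genes because they moved together. The sequences below are the 250 bases before the annotated start of 6 pathway genes that were called higher, in build GRCm38.p6, 5' to 3' on the gene's strand, with matches to the NF-kB consensus on either strand in capitals. They are shown to let the matching letters be compared between genes. Each of the 6 has a match, and called genes without one are not printed. For Nfkb2 and Tnfaip3, which have several annotated starts, the start with the most matches is shown.
Nfkbia (chr12:55492648-55492897, minus strand): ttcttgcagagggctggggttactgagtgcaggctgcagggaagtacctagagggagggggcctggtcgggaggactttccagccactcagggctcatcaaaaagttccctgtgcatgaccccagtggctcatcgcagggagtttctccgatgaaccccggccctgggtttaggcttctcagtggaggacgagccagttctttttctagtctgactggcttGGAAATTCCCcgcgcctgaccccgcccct
Nfkb2 (chr19:46304487-46304736, plus strand): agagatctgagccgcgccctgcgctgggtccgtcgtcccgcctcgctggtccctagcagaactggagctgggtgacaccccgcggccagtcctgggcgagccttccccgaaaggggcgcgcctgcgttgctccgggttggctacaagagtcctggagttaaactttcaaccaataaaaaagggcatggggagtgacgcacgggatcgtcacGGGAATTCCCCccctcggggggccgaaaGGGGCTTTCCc
Nfkbie (chr17:45555450-45555699, plus strand): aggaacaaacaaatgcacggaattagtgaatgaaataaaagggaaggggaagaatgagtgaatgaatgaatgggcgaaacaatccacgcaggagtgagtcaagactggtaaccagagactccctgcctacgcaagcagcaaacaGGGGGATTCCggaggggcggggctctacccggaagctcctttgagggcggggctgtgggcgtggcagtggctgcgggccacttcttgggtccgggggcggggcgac
Tnfaip3 (chr10:19015411-19015660, minus strand): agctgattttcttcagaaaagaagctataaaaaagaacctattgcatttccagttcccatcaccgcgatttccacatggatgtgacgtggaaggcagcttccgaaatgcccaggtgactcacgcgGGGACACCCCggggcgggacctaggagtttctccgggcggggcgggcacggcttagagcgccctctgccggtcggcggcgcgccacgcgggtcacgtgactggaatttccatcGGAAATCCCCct
Tnip1 (chr11:54962941-54963190, minus strand): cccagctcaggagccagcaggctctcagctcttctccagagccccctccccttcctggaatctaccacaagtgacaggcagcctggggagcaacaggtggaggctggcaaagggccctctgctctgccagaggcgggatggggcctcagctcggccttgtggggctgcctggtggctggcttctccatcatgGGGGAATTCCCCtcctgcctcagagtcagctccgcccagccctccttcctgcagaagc
Ltb (chr17:35194257-35194506, plus strand): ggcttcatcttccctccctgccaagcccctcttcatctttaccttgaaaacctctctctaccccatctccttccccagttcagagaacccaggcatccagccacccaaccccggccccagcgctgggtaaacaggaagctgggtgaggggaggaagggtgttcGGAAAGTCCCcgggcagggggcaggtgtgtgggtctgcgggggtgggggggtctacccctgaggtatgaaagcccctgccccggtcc

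Nfkbia, Nfkbie and Ltb had 1 match each, Tnfaip3 had 2, and Nfkb2 and Tnip1 had 3 each, some of which overlap and run together in the capitals. Relb had no window in the table. The consensus was sought on both strands in 300-base windows, from 250 bases before to 50 after each start. It matched 13% of 485 windows of genes called higher, 4.68% of 342 windows of genes called lower and 5.12% of 18109 windows of all tested genes. A looser form of it, GGGNNNNNCC, matched 62.9%, 65.2% and 61.9% of the windows in the same order. The C/EBP motif TTGCNNAA, read by factors of granulocyte and monocyte genes, matched 11.8%, 11.1% and 9.39%. Matches of the consensus and of its looser form overlap by construction. Birc3, Lta, Tnf and Fas, also called higher, had matches to the looser form in their windows and none to the consensus. A match describes letters in a window and is not evidence of a bound site.

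Among the TNF superfamily ligands, 3 of 13 were higher and 1 lower. Ltb (lymphotoxin beta), which signals through Ltbr to the noncanonical branch, read 4.82, 5.11 and 5.02 without TNF and 8.22, 9.22 and 8.42 with it. Its highest untreated array was more than 3 units below its lowest treated one, a rise of 3.64 (SE 0.42, limma adjusted p = 0.000666). Lta, its partner in the lymphotoxin heterotrimer, read 5.01, 5.29 and 5.25 without TNF and 6.45, 6.69 and 6.11 with it and rose by 1.23 (SE 0.21, limma adjusted p = 0.00748). Tnf itself read 8.36, 8.42 and 8.44 without TNF and 9.20, 9.33 and 9.44 with it and rose by 0.92 (SE 0.15, limma adjusted p = 0.0062). The receptor gene Ltbr differed by -0.46 (SE 0.13, limma adjusted p = 0.0787). Tnfsf14 (LIGHT), another ligand of that receptor, was lower by 0.91. The call of Tnfsf14 was lost without untreated replicates 1 or 3 or treated replicates 1, 2 or 3 (limma adjusted p = 0.057 to 0.103). With the mean of its probe sets Tnfsf14 changed by -0.875 (limma adjusted p = 0.105).

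Of 20 other receptors of the superfamily, 3 were higher and 1 lower. Cd40, the costimulatory receptor of antigen-presenting cells, read 7.21, 7.10 and 7.39 without TNF and 8.91, 9.01 and 9.92 with it and rose by 2.05 (SE 0.31, limma adjusted p = 0.00372). Fas, the death receptor, read 7.09, 5.81 and 7.20 without TNF and 8.78, 8.04 and 9.25 with it, with untreated replicate 2 the lowest, and rose by 1.99 (SE 0.48, limma adjusted p = 0.0452). Tnfrsf12a, the receptor of TWEAK, fell by 0.57 (SE 0.10, limma adjusted p = 0.0114), with an adjusted p of 0.0591 under the sex-linked covariates and 0.0537 from the 6 arrays labelled mutant alone. Tnfrsf9 (4-1BB) was higher by 0.70. TNF receptor genes called higher numbered 1 without untreated replicates 1, 2 or 3 or treated replicate 3. TNF receptor genes called lower numbered 2 without untreated replicate 3 or treated replicate 1. TNF receptor genes called lower numbered 0 with the sex-linked covariates. For Tnfrsf9 the mean of all probe sets gave a change of 0.29 (limma adjusted p = 0.0572). The call of Fas was lost without untreated replicates 1, 2 or 3, treated replicates 1 or 3, wild-type untreated replicate 3 or wild-type treated replicates 1, 2 or 3 (limma adjusted p = 0.0532 to 0.156). The call of Tnfrsf9 was lost without untreated replicates 1, 2 or 3 or treated replicates 2 or 3 (limma adjusted p = 0.053 to 0.112).

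The 25 largest called increases ran from 3.23 to 5.73. Acod1, the enzyme that makes itaconate in activated macrophages, had the largest one: 3.88, 3.94 and 4.51 without TNF and 10.11, 8.50 and 10.90 with it. It was the only gene that moved from below the lower quartile (4.54) on all untreated arrays to above the median (7.44) on all treated ones, a rise of 5.73 (SE 0.46, limma adjusted p = 8.30e-05) or 53-fold. Aoc1, a diamine oxidase that breaks down histamine and putrescine, read 4.01, 4.58 and 4.09 without TNF and 9.77, 9.92 and 9.53 with it and rose 45.6-fold, by 5.51 (SE 0.22, limma adjusted p = 5.61e-07). Gpr25, an orphan receptor, rose by 5.15 (SE 0.42, limma adjusted p = 8.37e-05). Fpr2, a formyl peptide receptor of phagocytes, read 6.23, 6.44 and 7.75 without TNF and 11.74, 10.36 and 12.34 with it, with a wide spread among treated arrays and no overlap, and rose by 4.67 (SE 0.51, limma adjusted p = 0.000474). Gpr84, a receptor for medium-chain fatty acids, was more uniform at 6.33, 6.82 and 6.54 without TNF and 10.94, 10.43 and 10.80 with it, a rise of 4.16 (SE 0.21, limma adjusted p = 3.03e-06).

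Several of these genes act on the cytoskeleton or in cell guidance. Fscn1 (fascin), which bundles actin in the processes of mature dendritic cells, read 7.31, 7.65 and 6.53 without TNF and 11.64, 11.88 and 11.82 with it and rose by 4.62 (SE 0.40, limma adjusted p = 0.00012). Sema6d, a transmembrane semaphorin, read 5.37, 5.27 and 5.44 without TNF and 9.67, 9.99 and 9.83 with it and rose by 4.47 (SE 0.19, limma adjusted p = 7.77e-07). Dpysl3, a cytoskeletal protein best known from growing axons, read 3.31, 3.16 and 3.09 without TNF and 7.40, 8.10 and 7.37 with it and rose by 4.44 (SE 0.26, limma adjusted p = 8.08e-06). Dscam, an adhesion molecule of the immunoglobulin family, rose by 3.29 (SE 0.41, limma adjusted p = 0.00119). Transcription factor genes in the group were Zbtb46, which marks classical dendritic cells (4.65, 5.13 and 5.42 without TNF and 8.85, 9.49 and 9.15 with it), Trp63 of the p53 family (4.66, 4.46 and 4.54 without TNF and 7.69, 8.78 and 8.64 with it), Arnt2 of the bHLH-PAS family (3.92, 4.44 and 4.08 without TNF and 7.18, 8.21 and 7.82 with it) and Spic, an ETS factor of macrophages (3.80, 5.16 and 4.55 without TNF and 7.55, 7.01 and 8.78 with it). Their rises were 4.09, 3.82, 3.59 and 3.28, with limma adjusted p of 6.33e-05, 4.79e-05, 0.000212 and 0.00119. In none of these 4 did treated and untreated arrays overlap.

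The other members of the group were secreted or surface proteins and enzymes: Ly6i (4.67), Adgre4 (4.60), Parm1 (4.21), Gstt1 (3.79), Serpinc1 (3.32), Lhfp (3.31) and Pdcd1lg2 (3.23). Adgre4 is an adhesion receptor of myeloid cells, Gstt1 a glutathione transferase, Serpinc1 the coagulation inhibitor antithrombin and Pdcd1lg2 the PD-1 ligand PD-L2. Treated replicate 2 was the lowest treated array for 10 of the 25, among them Acod1, Fpr2 and Cp, and the highest for 14, among them Aoc1, Gpr25 and Dpysl3. All 25 increases kept their call under every alternative that tested them, but their size depended on the probe set. The filter on low values left out Cfb and Spic. For 9 of them the change was over 1.5 times smaller with the mean of all probe sets of the gene than with the brightest one. For Fscn1, Cp, Sema6d, Dpysl3, Zbtb46, Trp63, Tnfaip3, Arnt2 and Dscam the mean of all probe sets gave changes of 1.95, 2.86, 1.82, 1.59, 1.91, 0.98, 2.13, 1.28 and 1.87.

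**Figure D3:**
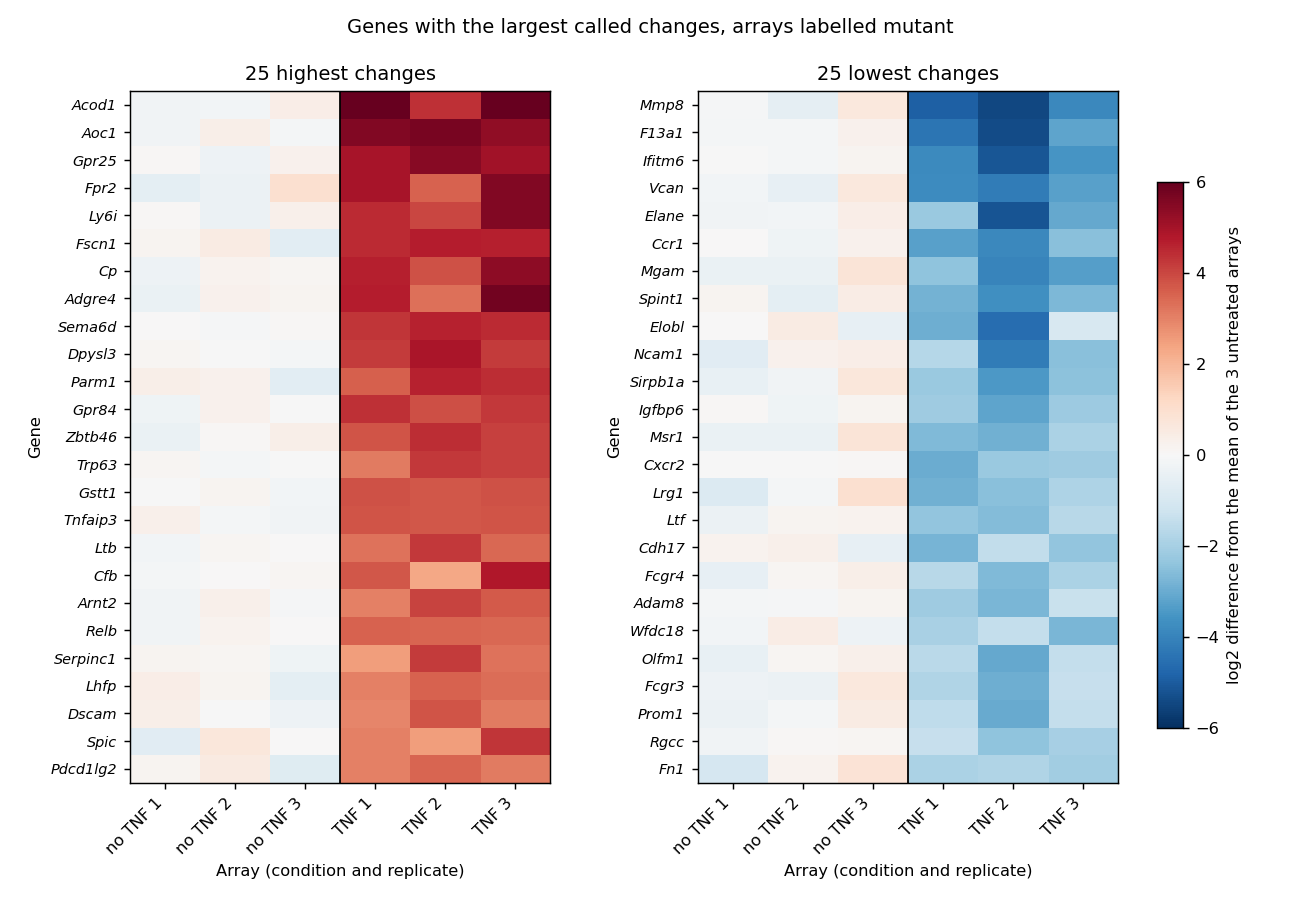
Rows are the 25 highest and 25 lowest called changes, columns the 6 arrays labelled mutant, and colour the log2 difference from the mean of the 3 untreated arrays, on a scale from -6 to 6. Every row is of 1 colour on the 3 treated arrays, and treated replicate 2 is the darkest blue in many of the rows that fell, such as Elane and Ncam1.

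Iron, copper and acute-phase genes gave 3 higher and 1 lower of 19. Cp (ceruloplasmin), a copper-carrying ferroxidase, read 4.96, 5.48 and 5.40 without TNF and 9.93, 9.09 and 10.65 with it and rose by 4.61 (SE 0.38, limma adjusted p = 9.21e-05), or by 2.86 with the mean of its probe sets. Saa3, an acute-phase apolipoprotein, was the largest called increase in the brightest 1820 genes: 10.34, 10.68 and 11.55 without TNF and 13.36, 12.61 and 13.62 with it, a rise of 2.34 (SE 0.34, limma adjusted p = 0.00323). Cfb, the protease of the alternative complement pathway, read 4.63, 4.79 and 4.85 without TNF and 8.47, 7.08 and 9.55 with it and rose by 3.61 (SE 0.46, limma adjusted p = 0.00133). The metal importer Slc39a14 fell by 0.69 (SE 0.11, limma adjusted p = 0.00576), with an adjusted p of 0.0514 for the mean of its probe sets. Lcn2, Hp and Saa1, also acute-phase genes, differed by -0.96, 1.27 and -0.01 and did not pass. Iron and acute-phase genes called lower numbered 2 without wild-type untreated replicate 1.

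Genes of dendritic cell maturation were mostly higher: 10 of 16 rose and 1 fell, with a median change of 1.09. Beside Relb, Fscn1 and Cd40, they included the checkpoint ligand Cd274 (PD-L1), at 9.04, 8.56 and 8.88 without TNF and 10.89, 11.02 and 10.85 with it, a rise of 2.10 (SE 0.13, limma adjusted p = 8.30e-06). Pdcd1lg2 read 6.44, 6.80 and 5.53 without TNF and 9.29, 9.77 and 9.39 with it. Cd83, a surface marker of mature dendritic cells, read 5.09, 4.36 and 3.92 without TNF and 6.20, 6.23 and 6.63 with it and rose by 1.90 (SE 0.29, limma adjusted p = 0.0047). The costimulatory ligand gene Icosl rose by 0.99 and Marcksl1 by 0.68, with no overlap between treated and untreated arrays. The costimulatory ligands Cd80 and Cd86, which also mark maturation, were not called: Cd80 (0.32, adjusted p = 0.647) and Cd86 (-0.35, adjusted p = 0.605). Ccr7, the receptor that guides mature dendritic cells to lymph nodes, was higher by 1.18, the transporter gene Slco5a1 was higher by 1.51, and Ido1 was lower by 0.32. For Icosl and Slco5a1 the mean of all probe sets gave changes of 0.54 and 0.87. Maturation genes called lower numbered 0 with the sex-linked covariates. The call of Ccr7 was lost without untreated replicates 1 or 3 or treated replicates 1, 2 or 3 (limma adjusted p = 0.0575 to 0.0862). The call of Slco5a1 was lost without treated replicate 2 (limma adjusted p = 0.0508). The call of Ido1 was lost without untreated replicates 2 or 3 or treated replicates 2 or 3 (limma adjusted p = 0.0887 to 0.109).

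MHC class II presentation genes had the highest median of the 44 lists, 1.58, with 6 of 11 members higher and 0 lower. H2-Eb1, a beta chain, read 8.22, 8.11 and 9.01 without TNF and 11.24, 11.30 and 11.59 with it and rose by 2.93 (SE 0.30, limma adjusted p = 0.00032). H2-Aa and H2-Ab1, the paired chains of another class II molecule, rose by 2.24 (SE 0.22, limma adjusted p = 0.000265) and 1.80 (SE 0.17, limma adjusted p = 0.00021). Cd74, the invariant chain, read 10.40, 10.11 and 11.15 without TNF and 12.98, 13.13 and 13.20 with it, with untreated replicate 3 the highest of its group but well below the treated arrays, and rose by 2.55 (SE 0.27, limma adjusted p = 0.000429). H2-DMb2, a subunit of the peptide-loading molecule, rose by 2.02 (SE 0.32, limma adjusted p = 0.00538). H2-DMa, H2-Oa, H2-Ob, the protease Ctss and the reductase Ifi30 were not called and lay between -0.40 (Ifi30) and -0.03 (H2-Oa). Ciita, the class II transactivator, read 6.23, 6.05 and 5.89 without TNF and 7.29, 7.48 and 8.14 with it, higher by 1.58. For Ciita the mean of all probe sets gave a change of 0.96. The call of Ciita was lost without untreated replicates 1, 2 or 3 or treated replicates 2 or 3 (limma adjusted p = 0.0544 to 0.0911).

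MHC class I and immunoproteasome genes gave 1 call. Only H2-K1 of 15 was called higher (0.38) and 0 lower, and B2m, Tap1 and Psmb8 differed by 0.14, -0.19 and -0.27 without passing. Class I genes called lower numbered 2 without wild-type untreated replicate 1. Class I genes called higher numbered 0 with the sex-linked covariates. The call of H2-K1 was lost without untreated replicates 2 or 3 or treated replicate 2 (limma adjusted p = 0.0524 to 0.0692). Of 34 interferon-stimulated genes, 4 were higher (11.8%, against 2.45% of all genes) and 2 lower (5.88%, against 1.86%), with a median of 0.05. Ifih1 (MDA5), a sensor of viral RNA, read 8.53, 8.96 and 8.41 without TNF and 9.52, 9.92 and 9.84 with it and rose by 1.13 (SE 0.20, limma adjusted p = 0.00952). Classical members such as Irf7, Ifit1 and Mx1 were not called: Irf7 (-0.06, adjusted p = 0.864), Ifit1 (-0.10, adjusted p = 0.96) and Mx1 (-0.34, adjusted p = 0.655). Interferon-stimulated genes called higher numbered 1 without untreated replicate 2 and 2 without untreated replicates 1 or 3 or treated replicates 2 or 3. Interferon-stimulated genes called lower numbered 0 without untreated replicate 3 or treated replicate 2 and 1 without untreated replicates 1 or 2 or treated replicates 1 or 3. Interferon-stimulated genes called higher and lower numbered 2 and 1 with the sex-linked covariates.

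**Figure D4:**
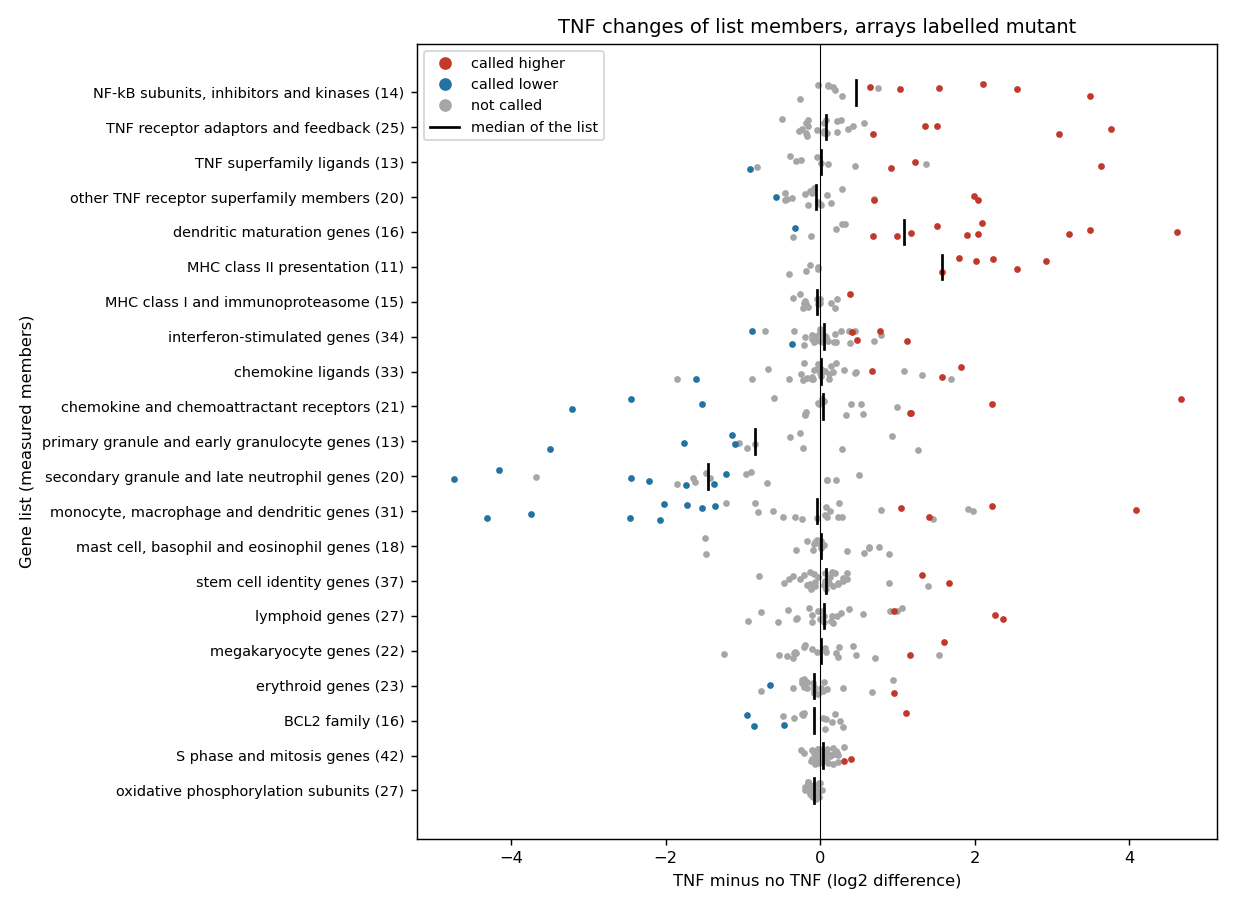
Each point is 1 measured member of a gene list, placed by its TNF minus no TNF difference on the arrays labelled mutant (x axis, log2), with called members in red or blue, uncalled ones in grey, the list's median as a black line and the number of members in brackets. Class II presentation and dendritic maturation genes lie mostly to the right, late neutrophil genes to the left, and oxidative phosphorylation subunits close to 0.

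Of 33 chemokine ligands, 3 were higher (9.09%, against 2.45% of all genes) and 1 lower (3.03%, against 1.86%). Cxcl16, a transmembrane chemokine, read 5.84, 6.05 and 5.69 without TNF and 7.21, 7.33 and 7.78 with it and rose by 1.58 (SE 0.22, limma adjusted p = 0.00261). Ccl4 (MIP-1 beta) read 9.27, 9.32 and 9.05 without TNF and 7.46, 7.10 and 8.25 with it and fell by 1.61 (SE 0.24, limma adjusted p = 0.00392). The neutrophil attractant Cxcl2 and the interferon-induced Cxcl10 differed by 1.70 and 1.32 with wide errors and were not called (limma adjusted p = 0.0867 and 0.0908). Ccl5 was higher by 1.82. Chemokine genes called higher numbered 1 without untreated replicate 1 or treated replicate 3. Chemokine genes called lower numbered 5 without treated replicate 3. Chemokine genes called higher numbered 1 with the sex-linked covariates. The call of Ccl5 was lost without untreated replicates 1 or 3 or treated replicates 2 or 3 (limma adjusted p = 0.0727 to 0.101).

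Of 21 receptors for chemoattractants, 4 were higher (19.0%, against 2.45% of all genes) and 3 lower (14.3%, against 1.86%). Ccr1, a receptor of myeloid cells, read 8.85, 8.59 and 9.08 without TNF and 5.56, 4.95 and 6.35 with it and fell by 3.22 (SE 0.31, limma adjusted p = 0.000212). Cxcr2, which brings neutrophils to CXC chemokines, read 6.87, 6.87 and 6.99 without TNF and 3.93, 4.67 and 4.80 with it, and fell by 2.44 (SE 0.19, limma adjusted p = 7.36e-05) from nearly equal untreated arrays. Ccr2, which draws monocytes and their progenitors out of marrow, read 12.60, 12.51 and 12.59 without TNF and 11.51, 10.36 and 11.24 with it and fell by 1.53 (SE 0.26, limma adjusted p = 0.00738); with the sex-linked covariates its adjusted p was 0.0655. Cx3cr1, the fractalkine receptor, moved the other way: 7.94, 8.71 and 8.48 without TNF and 10.39, 10.35 and 11.09 with it, a rise of 2.23 (SE 0.37, limma adjusted p = 0.00628). For Ccr2 and Cx3cr1 the mean of all probe sets gave changes of -2.50 and 1.45. Ccrl2, an atypical receptor for chemerin, rose by 1.17 (SE 0.18, limma adjusted p = 0.00469). Cxcr4, which retains stem cells in the niche, read 12.79 to 12.89 over the 6 arrays and differed by -0.03 (SE 0.07, limma adjusted p = 0.893).

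Of 25 interleukins and colony-stimulating factors, 0 were higher and 2 lower (8%, against 1.86% of all genes), Il15 (-1.38) and Il10 (-1.21). Il6, Il1b, Csf2 and Csf3 were not called: Il6 (0.06, adjusted p = 0.967), Il1b (0.91, adjusted p = 0.0896), Csf2 (0.11, adjusted p = 0.744) and Csf3 (-0.05, adjusted p = 0.764). Without treated replicate 2, 2 members of this list were called higher. Interleukin genes called lower numbered 1 with the sex-linked covariates. The call of Il15 was lost without untreated replicates 1, 2 or 3 or treated replicates 1, 2 or 3 (limma adjusted p = 0.0524 to 0.104). The call of Il10 was lost without untreated replicates 2 or 3 or treated replicates 1 or 2 (limma adjusted p = 0.0563 to 0.0859). Among 28 cytokine receptors, 2 were higher (7.14%, against 2.45% of all genes) and 2 lower (7.14%, against 1.86%). Il18r1, a chain of the IL-18 receptor, read 6.48, 7.52 and 6.87 without TNF and 8.60, 9.92 and 9.01 with it and rose by 2.22 (SE 0.37, limma adjusted p = 0.00653). Il1rap, the accessory chain of the IL-1 receptor, fell by 0.46 (SE 0.08, limma adjusted p = 0.00906), with an adjusted p of 0.0711 under the sex-linked covariates and 0.251 for the mean of its probe sets. Il6st (gp130), the shared signalling chain for the IL-6 and IL-11 in the medium, was lower by 0.53, and Il1r1 was higher by 0.51. For Il1rap and Il1r1 the mean of all probe sets gave changes of -0.20 and 0.17, with a limma adjusted p of 0.326 for Il1r1. Cytokine receptor genes called higher and lower numbered 1 and 1 with the sex-linked covariates. The call of Il6st was lost without untreated replicates 2 or 3 or treated replicates 1, 2 or 3 (limma adjusted p = 0.0517 to 0.0782). With the mean of its probe sets Il6st changed by -0.40 (limma adjusted p = 0.277), and from the 6 arrays labelled mutant alone its limma adjusted p was 0.0571. The call of Il1r1 was lost without untreated replicates 1, 2 or 3, treated replicates 2 or 3, wild-type untreated replicate 3 or wild-type treated replicate 3 (limma adjusted p = 0.059 to 0.148). Receptors for the other growth factors in the medium, Kit and Flt3, differed by 0.13 and 0.29 with overlapping arrays. Of the cytokine signalling genes, Jak2 rose by 0.80 (SE 0.11, limma adjusted p = 0.00201), the survival kinase Pim2 read 8.88, 8.82 and 8.77 without TNF and 7.79, 7.82 and 7.68 with it and fell by 1.06 (SE 0.09, limma adjusted p = 0.000109), and the feedback inhibitors Socs1 and Socs3 were not called: Socs1 (-0.20, adjusted p = 0.449) and Socs3 (-0.33, adjusted p = 0.207).

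The lists with the lowest medians of all 44 were those of neutrophil development. Of 20 secondary granule and late neutrophil genes, 7 were lower and 0 higher, with a median change of -1.45. Mmp8, the neutrophil collagenase, read 10.80, 10.37 and 11.51 without TNF and 5.99, 5.43 and 7.02 with it, and fell by 4.75 (SE 0.47, limma adjusted p = 0.000261), 26.9-fold, the largest called decrease of all genes. Ifitm6, a membrane protein of the interferon-induced transmembrane family, read 11.38, 11.29 and 11.56 without TNF and 7.58, 6.28 and 7.89 with it and fell by 4.16 (SE 0.42, limma adjusted p = 0.000303). Ltf (lactoferrin) read 7.85, 8.36 and 8.40 without TNF and 5.82, 5.61 and 6.53 with it and fell by 2.21 (SE 0.34, limma adjusted p = 0.0044). Pglyrp1, a granule protein that binds peptidoglycan, read 9.59, 9.88 and 10.21 without TNF and 8.39, 7.91 and 8.16 with it and fell by 1.74 (SE 0.19, limma adjusted p = 0.000512). In these 4 genes the untreated and treated arrays were at least 1 unit apart. S100a8, Ngp, Camp and Chil3 were lower on every treated array but too variable to pass: S100a8 (-1.62, adjusted p = 0.0579), Ngp (-1.86, adjusted p = 0.126), Camp (-1.65, adjusted p = 0.214) and Chil3 (-3.68, adjusted p = 0.0736). Olfm4, Mmp9 and Lyz2 differed by 0.21, 0.09 and 0.50. Padi4, the enzyme that citrullinates histones in neutrophils, was lower by 1.22. Fcnb, a ficolin, was lower by 1.38. The call of Padi4 was lost without untreated replicates 1, 2 or 3, treated replicates 1, 2 or 3, wild-type untreated replicate 3 or wild-type treated replicate 3 (limma adjusted p = 0.0609 to 0.16). The call of Fcnb was lost without treated replicates 1 or 2 (limma adjusted p = 0.0519 to 0.0631).

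Primary granule genes are made earlier in granulocyte development. Of 13 primary granule and early granulocyte genes, 4 were lower and 0 higher, with a median of -0.85. Of these 4, Elane and Prtn3 encode granule proteins. Elane (neutrophil elastase) read 12.001, 12.03 and 12.62 without TNF and 9.97, 7.05 and 9.13 with it, with treated replicate 2 far below the others, and fell by 3.50 (SE 0.77, limma adjusted p = 0.029). Prtn3 (proteinase 3) read 13.40, 13.38 and 13.48 without TNF and 12.80, 11.56 and 12.46 with it and was lower by 1.15 (SE 0.28, limma adjusted p = 0.0427). Gfi1, a repressor that granulocytes need, was lower by 1.11 (SE 0.26, limma adjusted p = 0.0396). Hk3, a hexokinase of myeloid cells, read 9.02, 9.15 and 9.07 without TNF and 7.79, 6.75 and 7.42 with it and was lower by 1.76 (SE 0.33, limma adjusted p = 0.0127). Mpo, Ctsg and Ms4a3 were lower on every treated array and did not pass: Mpo (-0.95, adjusted p = 0.127), Ctsg (-0.85, adjusted p = 0.15) and Ms4a3 (-1.05, adjusted p = 0.156). Treated replicate 2 was the lowest array for all of these genes except Gfi1. The mean level of the list was 11.21, 11.27 and 11.54 on the untreated arrays and 11.10, 10.04 and 10.86 on the treated ones. The 20 late genes stood at 8.80, 8.97 and 9.19 without TNF and at 7.58, 6.82 and 7.87 with it. Without treated replicate 2, 1 primary granule or early granulocyte gene and 5 late genes were called lower. Primary granule and early granulocyte genes called higher numbered 1 without wild-type untreated replicate 1. Genes of this early list called lower numbered 0 without untreated replicate 2. They numbered 1 without untreated replicates 1 or 3 or treated replicates 2 or 3. They numbered 2 without wild-type untreated replicate 3 or wild-type treated replicate 3. Genes of this early list called lower numbered 0 with the sex-linked covariates. The adjusted p was then 0.0689 for Elane, 0.135 for Prtn3, 0.0904 for Gfi1 and 0.0561 for Hk3. The changes of these genes with the covariates were -4.02, -1.21, -1.26 and -1.90, in the same order, so none was smaller in size. The call of Elane was lost without untreated replicates 1, 2 or 3 or treated replicates 2 or 3 (limma adjusted p = 0.0624 to 0.106). The call of Prtn3 was lost without untreated replicates 1, 2 or 3, treated replicates 2 or 3, wild-type untreated replicates 2 or 3 or wild-type treated replicate 3 (limma adjusted p = 0.0609 to 0.13). The call of Gfi1 was lost without untreated replicates 1, 2 or 3, treated replicates 2 or 3, wild-type untreated replicate 3 or wild-type treated replicates 2 or 3 (limma adjusted p = 0.0503 to 0.146). The call of Hk3 was lost without untreated replicate 2 (limma adjusted p = 0.0526).

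**Figure D5:**
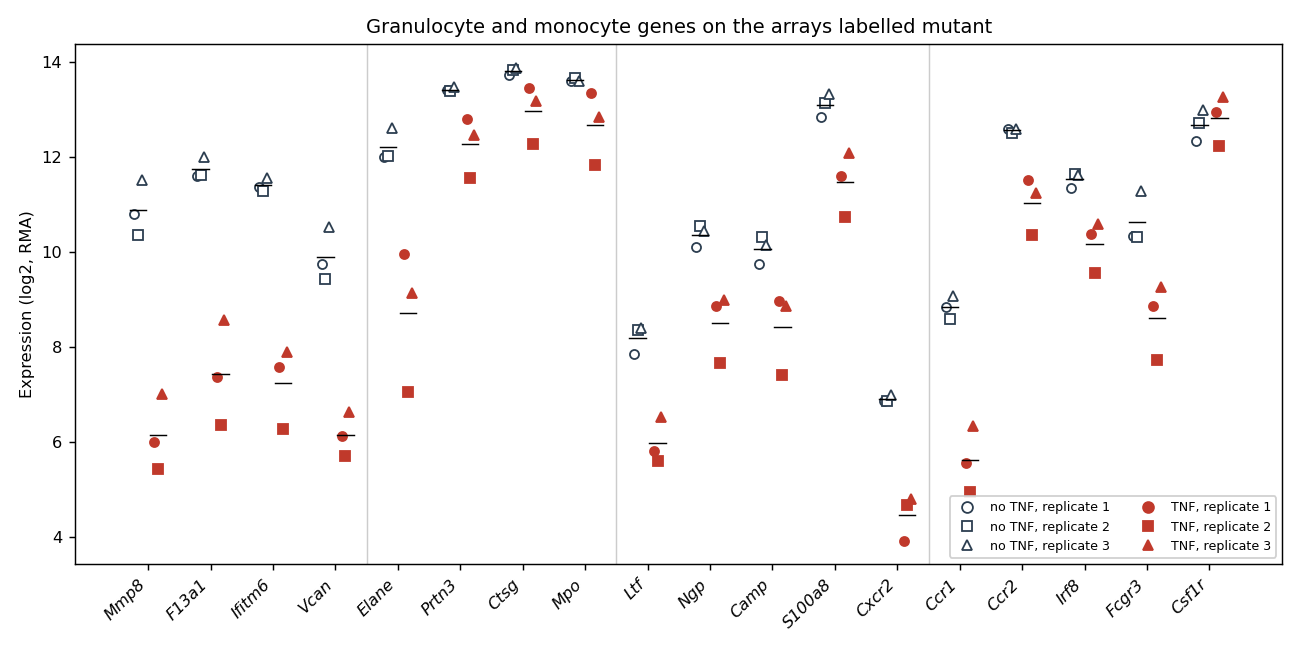
Points are single arrays labelled mutant, with expression on the y axis (log2), open symbols without TNF, red symbols with TNF, marker shape for the replicate number and a line at each group mean. From left to right the blocks hold leading decreases, primary granule genes, late neutrophil genes and monocyte or receptor genes; treated replicate 2 (red squares) is the lowest array for 17 of the 18 genes, Cxcr2 apart, and Csf1r overlaps between conditions.

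Monocyte, macrophage and dendritic genes went both ways, 8 of 31 lower and 4 higher. F13a1, the coagulation factor XIII subunit made by monocytes, read 11.61, 11.62 and 12.003 without TNF and 7.36, 6.36 and 8.57 with it and fell by 4.31 (SE 0.48, limma adjusted p = 0.000544). Vcan (versican), a matrix proteoglycan of classical monocytes, read 9.74, 9.43 and 10.53 without TNF and 6.12, 5.70 and 6.63 with it and fell by 3.75 (SE 0.39, limma adjusted p = 0.00032). Msr1, a scavenger receptor, fell by 2.47 (SE 0.40, limma adjusted p = 0.00592), and the activating Fc receptor gene Fcgr4 fell by 2.08 (SE 0.30, limma adjusted p = 0.00291). Irf8, the transcription factor that directs monocyte and dendritic fates, read 11.35, 11.64 and 11.62 without TNF and 10.37, 9.57 and 10.59 with it and fell by 1.36 (SE 0.22, limma adjusted p = 0.0062). Zbtb46 and Cx3cr1, given above, rose. Csf1r, Itgam, Cd68 and Adgre1 were not called, with changes of 0.13, 0.06, -0.04 and -0.23. The Fc receptor genes Fcgr3 and Fcgr1 changed by -2.02 and -1.72, and the lectin genes Clec10a and Siglech of dendritic cells by 1.41 and 1.04. Monocyte and dendritic genes called higher numbered 2 without untreated replicates 1 or 2 or treated replicate 3. Monocyte and dendritic genes called higher numbered 2 with the sex-linked covariates. For Vcan and Msr1 the mean of all probe sets gave changes of -1.37 and -1.20. The call of Fcgr3 was lost without untreated replicates 1, 2 or 3, treated replicates 1 or 2, wild-type untreated replicate 2 or wild-type treated replicate 3 (limma adjusted p = 0.0516 to 0.136). The call of Fcgr1 was lost without untreated replicate 3 or treated replicate 2 (limma adjusted p = 0.0522 to 0.0586). The call of Clec10a was lost without untreated replicates 1 or 2 or treated replicates 2 or 3 (limma adjusted p = 0.0544 to 0.0756). The call of Siglech was lost without untreated replicates 1 or 2, treated replicates 1, 2 or 3, wild-type untreated replicates 1, 2 or 3 or wild-type treated replicate 3 (limma adjusted p = 0.052 to 0.17).

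The remaining genes of the 25 largest decreases were mostly surface or secreted proteins. Mgam (maltase-glucoamylase) read 7.82, 7.82 and 9.003 without TNF and 5.82, 4.27 and 4.92 with it and fell by 3.21 (SE 0.47, limma adjusted p = 0.00323). Spint1, a membrane inhibitor of serine proteases, read 10.09, 9.34 and 10.35 without TNF and 7.08, 6.26 and 7.22 with it and fell by 3.07 (SE 0.30, limma adjusted p = 0.000265). The others that kept their call when any array was left out were Sirpb1a (-2.72), Igfbp6 (-2.49), Lrg1 (-2.40), Cdh17 (-2.21), Adam8 (-2.06) and Rgcc (-1.94). Cdh17, an adhesion protein of the cadherin family, had an adjusted p of 0.0523 with the sex-linked covariates. Decreases were also called for Ncam1 (-2.82), Olfm1 (-2.04), Wfdc18 (-2.04), Fn1 (-1.93) and Prom1 (-1.99), of which Ncam1 and Fn1 (fibronectin) act in adhesion and Prom1 (CD133) marks progenitors in several tissues. For Ncam1 the mean of all probe sets gave a change of -0.77. Elobl read 8.37, 8.83 and 7.88 without TNF and 5.43, 3.79 and 7.40 with it, with treated replicate 3 just below the untreated arrays. The call of Elobl was lost without untreated replicates 1, 2 or 3, treated replicates 1 or 2, wild-type untreated replicates 2 or 3 or wild-type treated replicates 1, 2 or 3 (limma adjusted p = 0.0531 to 0.138). The call of Ncam1 was lost without untreated replicates 2 or 3 (limma adjusted p = 0.0748 to 0.0799). The call of Olfm1 was lost without untreated replicates 2 or 3 (limma adjusted p = 0.0696 to 0.076). The call of Wfdc18 was lost without untreated replicate 2 (limma adjusted p = 0.059). The call of Fn1 was lost without untreated replicate 2 or treated replicate 3 (limma adjusted p = 0.0506 to 0.0577). The call of Prom1 was lost without untreated replicates 1, 2 or 3, treated replicate 2, wild-type untreated replicate 3 or wild-type treated replicate 3 (limma adjusted p = 0.0514 to 0.129).

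Of 37 stem cell identity genes, 2 were higher (5.41%, against 2.45% of all genes) and 0 lower, with a median of 0.08. Meis1, Mecom, Hlf, Hoxa9, Erg and Slamf1 differed by 0.16, 0.35, -0.40, 0.11, 0.19 and 0.23, none of them called. Over all genes the median half-width of the 95% interval of the TNF change was 0.27, so smaller shifts would often go unseen. Procr (EPCR), a surface marker of stem cells, read 7.52, 6.74 and 7.72 without TNF and 8.53, 8.56 and 9.89 with it, higher by 1.67, and Egr1, a factor of stem cell quiescence, was higher by 1.31. Stem cell genes called higher numbered 1 with the sex-linked covariates. The call of Procr was lost without untreated replicates 1, 2 or 3, treated replicates 2 or 3, wild-type untreated replicate 2 or wild-type treated replicates 1, 2 or 3 (limma adjusted p = 0.0527 to 0.149). The call of Egr1 was lost without untreated replicates 1 or 3 or treated replicates 1 or 3 (limma adjusted p = 0.0553 to 0.0963).

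Of 22 megakaryocyte genes 2 rose: Itgb3 (integrin beta 3), at 9.71, 9.48 and 9.77 without TNF and 11.19, 11.45 and 11.14 with it, by 1.61 (SE 0.13, limma adjusted p = 9.21e-05), and the urea transporter Slc14a1 by 1.17 (SE 0.20, limma adjusted p = 0.00725). Pf4, Gp9 and Itga2b were not called: Pf4 (0.46, adjusted p = 0.567), Gp9 (-0.53, adjusted p = 0.0787) and Itga2b (0.42, adjusted p = 0.47). Megakaryocyte genes called lower numbered 1 without wild-type treated replicate 2. Of 23 erythroid genes, Car2 (carbonic anhydrase 2) rose by 0.96 (SE 0.08, limma adjusted p = 0.000106) from 12.21, 12.07 and 12.13 to 13.18, 13.15 and 12.96, Klf1 was lower by 0.65, and Hba-a1 (2.94 to 3.45) and Alas2 (3.27 to 3.64) stayed below the lower quartile. Erythroid genes called higher numbered 2 without untreated replicate 1. The call of Klf1 was lost without untreated replicates 1, 2 or 3, treated replicates 2 or 3, wild-type untreated replicates 2 or 3 or wild-type treated replicates 1 or 2 (limma adjusted p = 0.0514 to 0.153). Of 27 lymphoid genes 3 were higher (11.1%, against 2.45% of all genes) and 0 lower. Rag1, the recombinase of B and T precursors, read 6.08, 6.99 and 6.15 without TNF and 8.28, 9.34 and 8.41 with it and rose by 2.27 (SE 0.38, limma adjusted p = 0.00689). Bcl11a, a factor of early lymphoid and dendritic precursors, rose by 0.95 (SE 0.13, limma adjusted p = 0.00235). Dntt, bright on all arrays at 11.82 to 12.79, and Ebf1 were not called: Dntt (0.27, adjusted p = 0.622) and Ebf1 (1.07, adjusted p = 0.226). Thy1 was higher by 2.36 and the T and B cell surface gene Cd5 by 2.28, the 1 called gene on the list of gate and lineage genes. The call of Thy1 was lost without untreated replicates 1, 2 or 3, treated replicates 1, 2 or 3, wild-type untreated replicate 3 or wild-type treated replicate 3 (limma adjusted p = 0.0579 to 0.136). The call of Cd5 was lost without untreated replicate 1 or treated replicate 3 (limma adjusted p = 0.053 to 0.0547).

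Of 18 genes of mast cells, basophils and eosinophils, limma called 0. An unadjusted p under 0.05 was seen for 5 of them, against 3106 of all 18193 genes. Without overlap between treated and untreated arrays, 4 of the 18 were higher and 2 lower, against 10.4% and 15.8% of all genes. The median change of the list was 0.01. The 2 lower ones were Mcpt8 (-1.48, adjusted p = 0.0919) and Hdc (-1.50, adjusted p = 0.087). Mast cell genes called higher numbered 1 without treated replicates 2 or 3. Mast cell genes called lower numbered 1 without treated replicate 3. Of 20 cytotoxic granule genes, Gzmc (granzyme C) read 3.89, 4.76 and 3.52 without TNF and 7.09, 7.36 and 6.81 with it and rose by 3.03 (SE 0.28, limma adjusted p = 0.00018). Klrd1 (CD94) rose by 2.20 (SE 0.36, limma adjusted p = 0.00581), and Nkg7, a granule membrane protein, read 11.61, 11.68 and 11.84 without TNF and 10.29, 10.13 and 9.93 with it and fell by 1.60 (SE 0.13, limma adjusted p = 7.59e-05). Gzma, Gzmb and Prf1 were not called: Gzma (0.20, adjusted p = 0.549), Gzmb (0.48, adjusted p = 0.279) and Prf1 (0.18, adjusted p = 0.667). Of 24 stromal and endothelial markers only Pecam1 and Fn1 were called, both lower and both also made by blood cells: Pecam1 fell by 1.15 (SE 0.18, limma adjusted p = 0.00481). Stromal genes called higher numbered 1 without treated replicate 1 or wild-type untreated replicates 1 or 2. Stromal genes called lower numbered 1 without untreated replicate 2 or treated replicate 3. The mean level of the list was 5.75, 5.79 and 5.72 without TNF and 5.64, 5.61 and 5.66 with it.

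Transcription factors of myeloid cells gave 3 higher and 3 lower of 30. Irf4, which acts in dendritic and plasma cells, read 6.85, 6.63 and 6.71 without TNF and 8.49, 8.48 and 8.69 with it and rose by 1.82 (SE 0.25, limma adjusted p = 0.00249). The core factors Spi1, Myb and Myc differed by 0.01, 0.03 and -0.07 with overlapping arrays, and Cebpa was lower on all treated arrays without passing (-0.62, adjusted p = 0.103). Myeloid transcription factors called higher numbered 1 without untreated replicate 3 or treated replicate 3. Myeloid transcription factors called lower numbered 1 without untreated replicate 3. Id1, an inhibitor of basic helix-loop-helix factors, was lower by 1.84, and Egr2 was higher by 2.56. Of 26 AP-1 and immediate early genes 5 were higher and 1 lower, and the count depended on single arrays. Immediate early genes called higher numbered 1 without untreated replicate 3 or treated replicate 3, 2 without untreated replicates 1 or 2 or treated replicate 1 and 3 without treated replicate 2. Fos, Jun and Atf3 were not called: Fos (0.36, adjusted p = 0.625), Jun (-0.05, adjusted p = 0.908) and Atf3 (-0.30, adjusted p = 0.871). Dusp1, a phosphatase of MAP kinases, was higher by 0.87, and Fosl1 was lower by 1.57. For Irf4 and Fosl1 the mean of all probe sets gave changes of 0.88 and -1.01. Immediate early genes called higher and lower numbered 2 and 0 with the sex-linked covariates. The call of Id1 was lost without untreated replicate 3 (limma adjusted p = 0.0664). The call of Egr2 was lost without untreated replicates 1, 2 or 3 or treated replicate 3 (limma adjusted p = 0.0721 to 0.106). The call of Dusp1 was lost without untreated replicate 3 or treated replicate 3 (limma adjusted p = 0.0501 to 0.0503). The call of Fosl1 was lost without untreated replicate 2 or treated replicates 2 or 3 (limma adjusted p = 0.053 to 0.0639).

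Of 16 BCL2 family members 1 was higher (6.25%, against 2.45% of all genes) and 3 lower (18.75%, against 1.86%). Bcl2, the founding survival protein, read 11.81, 12.01 and 11.82 without TNF and 10.91, 10.87 and 11.01 with it and fell by 0.95 (SE 0.10, limma adjusted p = 0.000529). Bid, which links death receptors to mitochondria, read 11.73, 11.92 and 11.78 without TNF and 10.93, 10.87 and 11.08 with it and fell by 0.85 (SE 0.10, limma adjusted p = 0.000625). Mcl1 and Bcl2l1 were not called: Mcl1 (0.06, adjusted p = 0.819) and Bcl2l1 (-0.34, adjusted p = 0.289). The proapoptotic Pmaip1 (Noxa) was higher by 1.11 and Bak1 was lower by 0.47. Among 21 caspase and necroptosis genes, Casp4, the sensor of intracellular lipopolysaccharide, read 10.18, 10.21 and 10.43 without TNF and 11.15, 11.17 and 11.24 with it and rose by 0.91 (SE 0.09, limma adjusted p = 0.000303). Casp8, Ripk3 and Cflar, which decide between survival and death below the TNF receptor, differed by 0.01, 0.00 and 0.07 with overlapping arrays. Mlkl, the pore-forming effector of necroptosis, was lower by 0.49. BCL2 family genes called higher numbered 0 with the sex-linked covariates. The call of Pmaip1 was lost without untreated replicates 2 or 3 or treated replicate 2 (limma adjusted p = 0.0508 to 0.0532). The call of Bak1 was lost without untreated replicates 1, 2 or 3, treated replicates 1, 2 or 3, wild-type untreated replicate 3 or wild-type treated replicates 1, 2 or 3 (limma adjusted p = 0.0593 to 0.162). With the mean of its probe sets Bak1 changed by -0.50 (limma adjusted p = 0.331). The call of Mlkl was lost without untreated replicate 3 or treated replicate 3 (limma adjusted p = 0.0576 to 0.0623).

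The p53 target Cdkn1a (p21), a brake on cell division, read 11.43, 11.63 and 11.76 without TNF and 10.82, 10.38 and 10.86 with it and fell by 0.92 (SE 0.15, limma adjusted p = 0.00672). Of 28 p53 genes 3 were higher (10.7%, against 2.45% of all genes) and 1 lower (3.57%, against 1.86%), with Cdkn1a the 1 that fell. p53 genes called higher numbered 0 without untreated replicate 2 and 1 without untreated replicate 3 or treated replicates 1, 2 or 3. p53 genes called lower numbered 2 without wild-type untreated replicate 1. p53 genes called higher numbered 0 with the sex-linked covariates. Mdm2, Bbc3 and Ccng1 were not called: Mdm2 (0.12, adjusted p = 0.674), Bbc3 (0.19, adjusted p = 0.336) and Ccng1 (-0.02, adjusted p = 0.946). Ccnd2, the D cyclin among the called genes, read 12.96, 12.89 and 12.94 without TNF and 12.21, 11.95 and 12.14 with it and fell by 0.83 (SE 0.08, limma adjusted p = 0.000243). Of 42 S phase and mitosis genes 2 were called higher, both by small steps, Tk1 (0.31) and Nusap1 (0.40). Mki67, Pcna and Ccna2 differed by 0.23, 0.03 and -0.12. Division genes called higher numbered 0 with the sex-linked covariates. The call of Tk1 was lost without untreated replicates 1, 2 or 3, treated replicates 1 or 3, wild-type untreated replicates 2 or 3 or wild-type treated replicates 1, 2 or 3 (limma adjusted p = 0.0502 to 0.129). The call of Nusap1 was lost without treated replicate 2 (limma adjusted p = 0.0502). None of 24 Fanconi anaemia and homologous recombination genes was called by limma, and 0 had an unadjusted p under 0.05, against 3106 of all 18193 genes. Fanca, Fancd2, Brca1 and Brca2 differed by -0.22, 0.23, 0.04 and 0.08.

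Of 9 NADPH oxidase components 3 were higher and 0 lower. Cybb, the catalytic subunit gp91-phox, read 9.05, 9.06 and 10.25 without TNF and 11.65, 11.05 and 12.13 with it, with untreated replicate 3 the highest of its group, and rose by 2.16 (SE 0.39, limma adjusted p = 0.0106); its adjusted p was 0.0795 with the sex-linked covariates. Its partner Cyba (p22-phox) was higher by 0.89 and the proton channel gene Hvcn1 by 1.24. NADPH oxidase genes called higher numbered 0 with the sex-linked covariates. The adjusted p was then 0.103 for Cyba and 0.152 for Hvcn1. The changes of Cybb, Cyba and Hvcn1 with the covariates were 1.77, 0.69 and 1.02. The call of Cyba was lost without untreated replicates 1 or 2 or treated replicates 1 or 3 (limma adjusted p = 0.0562 to 0.0788). The call of Hvcn1 was lost without untreated replicates 1 or 2 (limma adjusted p = 0.0895 to 0.0922). The cytosolic subunits Ncf1 and Ncf4 differed by 0.16 and -0.06. Of 25 antioxidant genes Prdx4 was higher (0.50) and Gpx3 lower (-1.05), 4% each way against 2.45% and 1.86% of all genes. Sod2, a familiar TNF target, read 12.53, 12.61 and 12.51 without TNF and 12.87, 12.44 and 13.05 with it. It was not called, with a difference of 0.24 (SE 0.15, limma adjusted p = 0.486). Antioxidant genes called lower numbered 0 without untreated replicates 2 or 3 or treated replicates 1 or 2 and 2 without wild-type untreated replicate 1. Antioxidant genes called higher and lower numbered 0 and 0 with the sex-linked covariates. The call of Prdx4 was lost without untreated replicates 1 or 2 or treated replicates 2 or 3 (limma adjusted p = 0.067 to 0.101). With the mean of its probe sets Prdx4 changed by 0.39 (limma adjusted p = 0.138). The call of Gpx3 was lost without untreated replicates 2 or 3 or treated replicates 1 or 2 (limma adjusted p = 0.0709 to 0.105).

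Of 19 matrix metalloproteinase and inhibitor genes 3 were lower and 1 higher, with a median change of 0.05. Adam8, a membrane protease of myeloid cells, fell by 2.06 (SE 0.31, limma adjusted p = 0.00369) and the inhibitor Timp1 fell by 1.63 (SE 0.24, limma adjusted p = 0.00372). Mmp14, a membrane collagenase, read 6.17, 6.42 and 6.28 without TNF and 8.64, 7.51 and 9.42 with it and rose by 2.23 (SE 0.37, limma adjusted p = 0.00632), with an adjusted p of 0.0618 under the sex-linked covariates. Of 28 adhesion molecules 4 were lower (14.3%, against 1.86% of all genes) and 2 higher (7.14%, against 2.45%). Their median change was -0.05 against -0.03 over all genes. Selplg (PSGL-1), the selectin ligand used in homing, read 12.13, 12.17 and 12.16 without TNF and 11.39, 11.39 and 11.47 with it and fell by 0.74 (SE 0.08, limma adjusted p = 0.00046), and Itgb7 fell by 1.43 (SE 0.13, limma adjusted p = 0.000193). Itga4, Cd44 and Vcam1 were not called: Itga4 (-0.36, adjusted p = 0.179), Cd44 (-0.12, adjusted p = 0.488) and Vcam1 (1.03, adjusted p = 0.242). Icam1, a known NF-kB target, was higher by 0.46. Adhesion genes called higher numbered 1 without untreated replicates 1 or 2, treated replicates 1 or 3, wild-type untreated replicates 2 or 3 or wild-type treated replicates 1, 2 or 3. Adhesion genes called higher numbered 1 with the sex-linked covariates. The call of Icam1 was lost without untreated replicates 1, 2 or 3, treated replicates 1 or 3, wild-type untreated replicates 2 or 3 or wild-type treated replicates 1, 2 or 3 (limma adjusted p = 0.0546 to 0.151). Of 21 eicosanoid genes the prostacyclin receptor Ptgir rose by 1.05 (SE 0.13, limma adjusted p = 0.00133), and 3 were lower. Ltb4r1, a leukotriene receptor, was lower by 1.23, and the synthesis genes Alox5ap and Ptges2 changed by -0.71 and -0.59. Eicosanoid genes called higher numbered 2 without untreated replicate 1, treated replicate 2, wild-type untreated replicates 1 or 3 or wild-type treated replicate 2. Eicosanoid genes called lower numbered 0 without untreated replicate 3 or treated replicates 1 or 2 and 1 without untreated replicates 1 or 2. Eicosanoid genes called higher and lower numbered 2 and 0 with the sex-linked covariates. The call of Ltb4r1 was lost without untreated replicate 3 or treated replicates 1 or 2 (limma adjusted p = 0.0653 to 0.0792). The call of Alox5ap was lost without untreated replicates 1, 2 or 3 or treated replicates 1 or 2 (limma adjusted p = 0.0555 to 0.115). The call of Ptges2 was lost without untreated replicates 1, 2 or 3, treated replicates 1, 2 or 3, wild-type untreated replicates 2 or 3 or wild-type treated replicates 1 or 3 (limma adjusted p = 0.0503 to 0.143).

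None of 27 oxidative phosphorylation subunits and none of 24 unfolded protein response genes was called by limma. Of these, 1 and 5 had an unadjusted p under 0.05, against 3106 of all 18193 genes. Unfolded protein genes called lower numbered 1 without treated replicate 1 or wild-type treated replicate 1. Of 21 cholesterol genes only the efflux pump Abca1 was called: it read 5.04, 4.99 and 4.73 without TNF and 6.62, 6.63 and 6.87 with it and rose by 1.78 (SE 0.19, limma adjusted p = 0.000423), whereas Abcg1 and Nr1h3 differed by -0.02 and 0.01. For Abca1 the mean of all probe sets gave a change of 0.61. Of 20 glycolysis genes the transporter Slc2a6 was higher by 1.31 and Hk3 lower. Glycolysis genes called lower numbered 0 without untreated replicate 2 and 2 without wild-type treated replicate 2. Glycolysis genes called higher and lower numbered 0 and 0 with the sex-linked covariates. The call of Slc2a6 was lost without untreated replicates 1, 2 or 3, treated replicates 1 or 3 or wild-type treated replicate 3 (limma adjusted p = 0.0522 to 0.123).

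Of 23 TGF-beta pathway genes 3 were higher (13%, against 2.45% of all genes), Tgfbr2 (0.66), Skil (0.67) and Ski (0.30). TGF-beta genes called lower numbered 1 without untreated replicate 3 or wild-type treated replicate 3. For Tgfbr2, Skil and Ski the mean of all probe sets gave changes of 0.22, 0.42 and 0.25 (limma adjusted p = 0.294, 0.121 and 0.13). The call of Tgfbr2 was lost without untreated replicates 2 or 3 or treated replicates 2 or 3 (limma adjusted p = 0.0684 to 0.0781). The call of Skil was lost without untreated replicates 2 or 3 or treated replicates 2 or 3 (limma adjusted p = 0.0626 to 0.0851). The call of Ski was lost without untreated replicates 1, 2 or 3 or treated replicates 1, 2 or 3 (limma adjusted p = 0.0727 to 0.129). Of 23 Toll-like receptor genes 0 were higher and 2 lower (8.70%, against 1.86%), Tirap (-0.80) and Nod1 (-0.56), and Tlr2 and Cd14 were not called: Tlr2 (0.73, adjusted p = 0.276) and Cd14 (1.91, adjusted p = 0.103). Without treated replicate 2, 2 genes of this list were called higher. Toll-like receptor genes called lower numbered 0 with the sex-linked covariates. The call of Tirap was lost without untreated replicates 1, 2 or 3, treated replicates 2 or 3, wild-type untreated replicates 2 or 3 or wild-type treated replicate 3 (limma adjusted p = 0.0565 to 0.124). The call of Nod1 was lost without untreated replicates 2 or 3, treated replicates 1, 2 or 3, wild-type untreated replicates 2 or 3 or wild-type treated replicate 3 (limma adjusted p = 0.0525 to 0.151).

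Among the 1820 genes with the highest mean level, 37 were higher and 18 lower. Both are smaller shares than the 2.45% higher and 1.86% lower over all genes. Beside Saa3 and Nfkbia, the increases were led by the neighbouring membrane protein genes Tmem176a (11.32, 11.22 and 11.36 without TNF and 12.78, 12.75 and 12.87 with it) and Tmem176b (12.43, 12.33 and 12.36 without TNF and 13.40, 13.32 and 13.37 with it), which rose by 1.50 (SE 0.09, limma adjusted p = 7.04e-06) and 0.99 (SE 0.09, limma adjusted p = 0.00019). Fyb, an adaptor of integrin signalling, rose by 1.14, the ubiquitin ligase Nedd4 by 0.91 and the surface glycoprotein Cd52 by 0.92. The decreases included Ttyh2 (-0.96, adjusted p = 0.0599 with the sex-linked covariates), Gcnt1 (-0.72), Chchd10 (-0.68), Cytip (-0.68) and Cd93 (-0.52). For Gcnt1 the mean of all probe sets gave a change of -1.10.

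The TNF changes on the arrays labelled mutant were last set beside those of wild-type cells, which share no array with them. No gene passed the limma test of the difference between the 2 TNF changes (0 of 18193, 0%), and 527 genes had an unadjusted p under 0.05 for it. That is a smaller share than the 0.05 that evenly spread p-values would give. Of the 784 called genes, 777 had a change of the same sign in wild-type cells. Fewer, 551, also passed the limma threshold there: 325 of the increases and 226 of the decreases. Wild-type calls over all genes numbered 913 (5.02%). In wild-type cells the treated and untreated arrays of 708 of the 784 did not overlap and lay in the same direction, those of 75 overlapped, and those of 1, Lrat, lay in the opposite direction. These genes had been chosen by their call on the arrays labelled mutant, in a fit whose spread also came from the wild-type arrays. How many of all genes shared the sign or lacked overlap in wild type was not counted here. Changes in the arrays labelled mutant and in wild type were 3.49 and 3.20 for Relb, 3.77 and 3.51 for Tnfaip3, 5.73 and 5.33 for Acod1, -4.75 and -5.08 for Mmp8, and -3.50 and -3.58 for Elane.

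The precision of that comparison was lower, since the median half-width of the 95% interval of the difference was 0.381. Abca1 had the smallest p among differences in which the change was more positive on the arrays labelled mutant: 1.78 there and 0.58 in wild type, a difference of 1.20 (95% interval 0.61 to 1.79). Cbx7, a Polycomb protein, rose by 0.93 on the arrays labelled mutant and by 1.66 in wild type, a difference of -0.72 (95% interval -1.05 to -0.40). With the mean of each gene's probe sets the difference was 0.50 for Abca1 and -0.34 for Cbx7. Spats2 differed by 0.55 and 1.84, a difference of -1.29 (95% interval -1.82 to -0.75). Slamf7, a receptor of the SLAM family, changed by 0.54 and -0.14, a difference of 0.68 (95% interval 0.33 to 1.04). None of these differences passed over all genes (limma adjusted p = 1 for Abca1).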

How the data were processed

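RNA of 5 to 15 ng per sample was amplified and hybridised to Affymetrix MOE430 arrays, 3 per group. The authors deposited 1 table of RMA values (robust multi-array average), per the labels and the submitters' processing notes. No label used here states the log base; the deposited values run from 2.14 to 14.94 and were taken as log2. RMA corrects background and quantile-normalizes arrays together, so a shift of total RNA is not visible. Of 45037 probe sets that are not controls, 34945 had 1 gene symbol in the platform's annotation, 932 several and 9160 none, and the brightest probe set stood for each of 18193 genes.

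A mean per group was fitted over all 12 arrays with limma 3.58.1 (R 4.3.3), with 8 residual degrees of freedom. P-values were adjusted by the Benjamini-Hochberg method over all genes, and an adjusted p under 0.05 made a call. On simulated data for this comparison with 18193 genes, 73% of 100 changes of log2 1 and 99% of 100 changes of log2 2 were recovered, and 8 unchanged genes were called. The simulated noise was independent for each gene and array. Shifts shared by many genes of 1 array, such as treated replicate 2, were not simulated, so these rates need not hold for the real arrays. Precision is limited by how few arrays there are.

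The 44 gene lists (919 of 1009 listed genes measured) and the members were chosen with earlier results of these data known. Named were the 25 highest and 25 lowest changes among called genes whose arrays did not overlap, the 10 smallest p, the 10 highest and lowest among the 1820 brightest, genes that crossed from the lower quartile to above the median, called list members and fixed members by role, Fancc, and the 5 smallest p in each direction for the difference between genotypes. Predicted genes were skipped, and not every gene so named is described. Mouse promoter windows came from RefSeq tables of build GRCm38.p6. Alternatives were a replicate block, trend and robust moderation, array weights, the 6 arrays labelled mutant alone, 2 scalings (median centring and cyclic loess), a filter on low values, the mean of probe sets, all probe sets, a 2-fold minimum, covariates for Xist and Eif2s3y, and each array left out.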

Additional observations from a re-analysis of the deposited data

Results flagged for a closer look

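Lrat, which esterifies retinol, changed in opposite directions in the 2 genotypes on every array. It read 4.17, 4.35 and 4.26 without TNF and 3.85, 3.96 and 3.90 with it on the arrays labelled mutant, a change of -0.36, and changed by 0.12 in wild type, so the mutant change minus the wild-type change was -0.4808 (limma adjusted p = 1). All its values lay below the lower quartile of gene values. Mospd4 moved the other way, by 0.23 against -0.46, a difference of 0.6916 (limma adjusted p = 1). Neither difference passed over all genes.

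Probe sets with no gene symbol, which the gene table does not use, also responded. Of 9160 such probe sets 65 were called by limma, 42 higher and 23 lower, which is 0.71%, against 2.44% of the 34945 probe sets with 1 symbol.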

How the results depend on the processing

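The count of 784 called genes (446 higher, 338 lower) became 340 (231 and 109) with a 2-fold minimum and 452 (274 and 178) once Xist and Eif2s3y were covariates. Array weights gave 1168 (629 and 539). The other settings lay within 1.5 times: 681 (401 and 280) from the 6 arrays labelled mutant alone, 934 (529 and 405) with trend and robust moderation, 856 (406 and 450) after median centring, 819 (514 and 305) after cyclic loess, 831 with the filter, 812 with the mean of probe sets and 943 over all probe sets. Leaving out 1 array gave 444 to 951 called genes, 282 to 529 higher and 162 to 422 lower, with the lowest counts without untreated replicate 2. The cause was not tested.

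The labels used here do not state whether equal replicate numbers mark pairs. The r of deviations from the group means was -0.01, 0.04 and 0.19 for equal numbers and -0.19 to 0.16 for unlike ones. These few values cannot decide whether samples were paired. With the replicate block 790 genes were called (459 and 331). For the difference between genotypes, 0 genes passed, and leaving out 1 array gave 0 to 1, the 1 being Tm4sf1 without wild-type untreated replicate 1. Of 181 named called genes, 100 kept their call under every alternative that tested them but the 2-fold minimum. The filter on low values tested 161 of the 181. The call was lost by 63 with the sex-linked covariates and by 39 from the 6 arrays labelled mutant alone. It was lost by 32 over all probe sets and by 13 with the mean of probe sets. Leaving out 1 array ended from 1 call (wild-type untreated replicate 1) to 57 (untreated replicate 2). The mean of probe sets was also the only setting run that moved the size of named calls by over 1.5 times (28 genes). Of 62 counts of list members above 0, 30 moved by over 1.5 times with the covariates (16 to 0), 25 with the 2-fold minimum, 23 from the arrays labelled mutant alone, 13 with the filter, 10 each with the mean of probe sets and the block, and 4 to 28 when 1 array was left out. Values that turned were all uncalled: Fancc gave 0.0065 after cyclic loess, 0.0455 with the mean of probe sets and -0.1696 to 0.0442 when 1 array was left out, positive without untreated replicate 1 (0.0442) or 3 (0.0386) or treated replicate 1 (0.0276). Over the same settings Rel ran from -0.03 to 0.1953, turning without untreated replicate 3 (-0.03) or treated replicate 3 (-0.01), and Tnfrsf1b from -0.0594 to 0.4173, turning without treated replicate 3.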
